A study of Caenorhabditis elegans with 2 samples.

Results

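Nucleoporins build the nuclear pore, and importins, exportins and the proteins of the Ran cycle carry cargo through it. In Caenorhabditis elegans these genes are named npp for nucleoporins, ima and imb for importins alpha and beta, xpo for exportins and ran for the Ran cycle. The set described here is every protein-coding gene of the Ensembl WBcel235 annotation whose name is one of these stems, a hyphen and a number, which gave 40 of 19973 protein-coding genes on the nuclear chromosomes. The name rule leaves out any nucleoporin gene under another name, such as rae-1, which the annotation does not call npp-17. The data show where the protein of Y79H2A.3, described in the RefSeq annotation as holding a C2H2-type domain, a kind of zinc finger, was found at these genes. Strain RW12273 has TY1, EGFP and 3xFLAG tags inserted by CRISPR at Y79H2A.3 on chromosome III (allele st12273), and all animals carried it. Whole young adults of 63 hours, synchronised by starving L1 larvae after bleaching, were sheared by sonication, and chromatin was precipitated with an antibody against GFP. There was 1 group of 2 biological replicates, with no second genotype, stage or treatment, and no control precipitation was analysed here. In whole animals, strong binding in few cells and weak binding in many cannot be told apart.

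The pore is a ring of repeated subunits set in the nuclear envelope. The Y complex and the inner ring form its scaffold, nucleoporins rich in phenylalanine and glycine fill the central channel, and other proteins form the nuclear basket, the cytoplasmic side and the membrane anchor. Importins bind cargo in the cytoplasm and release it in the nucleus when they meet Ran bound to GTP, exportins bind cargo together with that form of Ran, and the gradient is kept by an exchange factor on chromatin and a GTPase activator in the cytoplasm. Pores and envelope are taken apart and rebuilt when animal cells divide.

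Of the 40 genes, 7 (17.5%) had a peak summit in the promoter window, set from 1000 bp upstream to 200 bp downstream of a transcript start, in the conservative list of 1021 peaks that the authors drew from the comparison of both replicates. The background over all protein-coding genes was 2.88%. It was 3.25% over the autosomes, which hold all 40 genes, and 3.64% over coding genes whose names are letters and a number. The 7 genes were npp-6 and npp-18 of the Y complex, npp-3 of the inner ring, npp-21 of the nuclear basket, ima-1 of the importins alpha, imb-3 of the importin beta family and ran-1, the Ran GTPase, and they are called bound here. The genes were gathered by name with earlier results of these data known, so these shares are a description and no test was made of the difference.

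The window of 101 bases centred on the summit held a median of 9 CG dinucleotides over the 7 bound genes, against 5 over all conservative summits. The bases of 5 of the 7 windows are shown, and these 5 are not the ones with most CG. Those of xpo-1, the exporter of proteins with a nuclear export signal, are shown beside them because its site fell just short of the conservative list and held 13. All are from the RefSeq genome of assembly WBcel235, the forward strand from 5′ to 3′, with CG in capitals:
npp-18 (chrIII:13296414-13296514): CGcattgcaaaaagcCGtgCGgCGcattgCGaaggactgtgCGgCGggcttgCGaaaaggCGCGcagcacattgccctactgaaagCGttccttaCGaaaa
npp-3 (chrII:11874817-11874917): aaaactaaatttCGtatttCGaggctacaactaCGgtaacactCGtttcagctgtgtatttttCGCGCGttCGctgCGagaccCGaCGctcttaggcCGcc
ima-1 (chrV:11239361-11239461): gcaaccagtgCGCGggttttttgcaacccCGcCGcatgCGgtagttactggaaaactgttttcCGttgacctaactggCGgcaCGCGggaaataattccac
npp-21 (chrII:7599079-7599179): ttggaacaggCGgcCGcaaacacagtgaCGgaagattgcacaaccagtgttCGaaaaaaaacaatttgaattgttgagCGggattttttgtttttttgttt
ran-1 (chrIII:10748031-10748131): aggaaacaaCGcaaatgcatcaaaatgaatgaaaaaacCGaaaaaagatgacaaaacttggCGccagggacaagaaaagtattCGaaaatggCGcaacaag
xpo-1 (chrV:7804238-7804338): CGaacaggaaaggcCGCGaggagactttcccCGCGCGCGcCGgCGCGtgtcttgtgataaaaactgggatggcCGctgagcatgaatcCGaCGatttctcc

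These windows differ among themselves. The windows of npp-18 and npp-3 held 12 CG each, and that of ima-1 held 9. Those of imb-3 and npp-6, whose bases are not shown, held 9 and 7. The windows of npp-21 and ran-1 held 5 each, the same as the median of all conservative summits. GC content ran from 38.61% at ran-1 to 57.43% at npp-18, with a median of 46.53% against 43.56% over all conservative summits. The 6-base string CGCGCC, read on both strands, was chosen for the search with earlier results of these data known. It was present at npp-18 alone among the 7 (14.3%), against 10.4% of all conservative summits, and also at xpo-1. The string TTCGCGC, which can overlap it, was present at npp-3 alone among the 7, against 4.31%, and CTGCGTC at 0 of the 7, against 3.92%.

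Heights below are the authors' deposited signal value, whose scale is not stated. The list of all ranked sites from the comparison also gives a signal value for each replicate in 2 columns that carry no replicate number. The first column equalled the value in the list of replicate 1 at 31 of the 32 member sites that this list covers, and the second that of replicate 2 at 30 of 30. They are called the first and the second replicate column here, and replicate values below are from them unless a list is named. The ranked list of replicate 1 has no site that touches the tallest site of npp-1, npp-15, npp-19, npp-23, ran-3 or ran-4. That of replicate 2 has none at imb-2, npp-4, npp-10, npp-19, npp-20, npp-23, npp-25 or xpo-2. At these sites the column value could not be checked against the list of that replicate. In the list from the comparison, the irreproducible discovery rate (IDR) is the authors' estimate of how poorly a site repeats between the replicates. Conservative peaks have an IDR of 0.01 or less in it. The ranked lists of single replicates carry an IDR of their own, which cannot measure repeats between the replicates.

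Of the scaffold, the 8 genes of the Y complex held the 2 tallest promoter peaks of the set in the compared list. In the replicate columns this order did not hold, as npp-18 was the lowest of the 7 bound genes in the first and npp-3 was above both in the second. npp-6, the counterpart of vertebrate Nup160, had a peak of signal value 118 at 5176303 to 5176598 on chromosome I, with its summit 378 bp upstream of the start. Its replicate columns held 60.46 and 58.28, and its IDR was 0.000182. It was the one member with a promoter summit in the thresholded lists of replicate 1 (signal value 60.46) and of replicate 2 (58.28) alike. The summit lies in an intron of spd-5, the gene of a centrosome scaffold protein on the opposite strand, 203 bp past the longer spd-5 start and 743 bp upstream of the inner one. Of its overlapping stretches of 31 bases, 72.18% occur once in the genome.

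npp-18, the counterpart of SEH1, had a peak of signal value 99.02 at 13296316 to 13296611 on chromosome III, 389 bp upstream. The replicate columns differed more here, at 32.99 and 54.25, and the IDR was 0.00219. The peak was in the thresholded list of replicate 2 but not in that of replicate 1. No other coding gene's window held this summit. Only 48.87% of its stretches of 31 bases (130 of 266) occur once in the genome, the lowest share among the members' sites, and 34 of the 38 tallest ranked sites had 100%. Whether repeated sequence had a part in its height was not tested.

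The other 6 genes of the Y complex had no conservative peak in the window, and their tallest ranked sites were between 19.84 and 46.43. npp-2, the counterpart of Nup85, was the highest of them at 46.43, with 17.56 and 39.39 in the replicate columns. npp-15, npp-20, npp-5 and npp-10 followed between 36.37 and 29.97, with first replicate values of 9.194 to 13.65 and second ones of 12.75 to 27.8. npp-23, the counterpart of Nup43, was the lowest at 19.84, with 9.252 and 9.907 in the replicate columns and an IDR of 0.842. Neither ranked replicate list had a site that touches this one. In the window the list of replicate 2 had a site of 30.7, 190 bp past a start, and that of replicate 1 had none. Over the 8 genes the median was 35, and npp-6 and npp-18 stood apart in height from the other members of the complex.

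Of the 4 inner ring genes, npp-3 had a conservative peak. npp-3, the counterpart of Nup205, had signal value 92.15 at 11874719 to 11875014 on chromosome II, with the summit nearest to its start of the 7, at 79 bp upstream. The replicate columns held 38.21 and 60.38, and the IDR of their comparison was 0.000831. The peak was in the pooled list, yet in neither thresholded replicate list, and its −log10 IDR was 0.0977 in the ranked list of replicate 1 and 0.324 in that of replicate 2. It also lies 281 bp upstream of top-2, the topoisomerase II gene on the opposite strand. npp-8, the counterpart of Nup155, had a ranked site of 58.47 at 177 bp upstream, with 30.2 and 24.86 in the replicates and an IDR of 0.0577. npp-13 (Nup93) had 3 ranked sites in its window, the tallest 41.66. npp-19 (Nup35) had the lowest tallest site of the 38 genes with one, at 19.65, 251 bp upstream, with an IDR of 0.652. Its second replicate column held 11.37, while the 22.09 in the first belongs to a peak of replicate 1 on the other side of the start, 167 bp past it, that does not touch the site.

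None of the 3 central channel genes had a conservative peak in the window. npp-11, the counterpart of Nup62, held 46.98, npp-4 (Nup58) 34.19 and npp-1 (Nup54) 27.77. In the replicate columns npp-11 held 23.99 and 23.51, npp-4 15.48 and 10.42, and npp-1 14.43 and 23.79. npp-4 and npp-1 thus change order between the columns. The second value of npp-4 and the first of npp-1 could not be checked against the replicate lists. Of the nuclear basket, npp-21, the counterpart of TPR, had a conservative peak of signal value 71.43 at 7598981 to 7599276 on chromosome II, 528 bp upstream, the farthest of the 7. Its replicate columns held 39.84 and 31.9, and its IDR was 0.00748. The summit is nearer to pgam-5, a gene for a mitochondrial phosphatase on the opposite strand, at 377 bp upstream. npp-7, the counterpart of Nup153, had a ranked site of 59.79 at 433 bp upstream with an IDR of 0.0312 and 32.46 and 27.03 in the replicates. npp-16 (Nup50) held 33.88. The basket had the highest median of the 6 pore groups with a role given, 59.79 over its 3 genes.

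The cytoplasmic side held both members without a ranked site in the window. npp-9, the counterpart of RanBP2, had none in any of the 8 lists. npp-26, the counterpart of GLE1, had none in the list from the comparison, a site of 13.48 in the ranked list of replicate 1, 378 bp upstream, and one of 12.93 in the ranked list of the pooled reads. npp-14, the counterpart of Nup214, stood far above them at 57.02, with 18.46 and 28.96 in the replicates and an IDR of 0.182. Its site lies 618 bp upstream in a coding exon of its neighbour cel-1. npp-24 (Nup88) held 27.15, with 19.6 and 8.197 in the replicates and an IDR of 0.686. The membrane nucleoporins were close together, with 43.79 at npp-25 (TMEM33), 40.18 at npp-12 (gp210) and 35.18 at npp-22 (NDC1). At npp-25 the replicate columns were far apart, at 34.18 and 10.89, though the list of replicate 2 had no site there to check the second. The columns were nearer at npp-12 (20.35 and 16) and npp-22 (19.6 and 16.6). None of these 3 genes was among the highest 10 percent of coding genes. npp-27, for which no role is given here, held 33.77.

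Among the import carriers, ima-1 had a conservative peak of signal value 87.4 at 11239263 to 11239558 on chromosome V, 264 bp upstream. Its replicate columns held 35.41 and 52.75, its IDR was 0.00158, and it was in the thresholded list of replicate 2. It was the only one of the 7 bound genes whose promoter window held a second ranked site above 50. That second site, of 67.3 at 861 bp upstream, is not in the conservative list. The first site lies 80 bp upstream of dvc-1, a gene for a protease that acts on proteins cross-linked to DNA. ima-3, also an importin alpha, held 54.34, with 22.07 and 36.22 in the replicates, and ima-2 held 30.62, with 23.19 and 23.04. The 3 importins alpha were thus spread over a wide range in the compared list. In the first replicate column they lay closer together, with ima-2 above ima-3.

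imb-3, a carrier of the importin beta family, had a conservative peak of signal value 70.08 at 315157 to 315452 on chromosome I, 316 bp upstream. The replicate columns held 39.11 and 32.14, the IDR was 0.00737, and no other coding gene's window held the summit. imb-2, the transportin gene, held 38, and imb-1, importin beta itself, held 30.83. In the replicates imb-2 held 22.93 and 12.22, and imb-1 15.61 and 27.14, so their order differs between the columns. Of the 3 exportin genes, none had a conservative peak in the window. xpo-1, also called CRM1, came closest of the 33 unbound members. Its ranked site had signal value 62.98 at 7804140 to 7804435 on chromosome V, 776 bp upstream, with 26.54 and 45.67 in the replicates. Its −log10 IDR was 1.96 and the conservative list begins at 2. xpo-2, which returns importin alpha to the cytoplasm, held 33.49, and xpo-3, a tRNA exporter, held 28.82. Their replicate values were 18.64 and 13.14 at xpo-2, and 13.56 and 22.18 at xpo-3.

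In the Ran cycle, ran-1 had a conservative peak of signal value 52.1 at 10747933 to 10748228 on chromosome III, 353 bp upstream. The replicate columns held 34.85 and 34.59, nearly the same, and the IDR was 0.00697. In the compared list it was the lowest of the 7, though in neither replicate column, and in that list 6 unbound members had a taller ranked site with a higher IDR. The summit falls in exons of the noncoding RNAs K01G5.11 and K01G5.12 and lies 348 bp upstream of dkc-1, the dyskerin gene on the opposite strand. ran-3, the exchange factor RCC1, held 54.91 at 392 bp upstream, with an IDR of 0.469. Its replicate columns held 14.87 and 38.92, the widest ratio in that direction among the 38 genes (2.62). The list of replicate 1 had no site there to check the 14.87 against. ran-4 (NTF2, which brings Ran into the nucleus) held 43.93, ran-2 (the GTPase activator) 37.73, and ran-5, a Ran-binding protein, 31.85. Their replicate values were 17.37 and 19.96 at ran-4, 26.96 and 9.86 at ran-2, and 19.05 and 18.44 at ran-5.

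**Figure D1:**
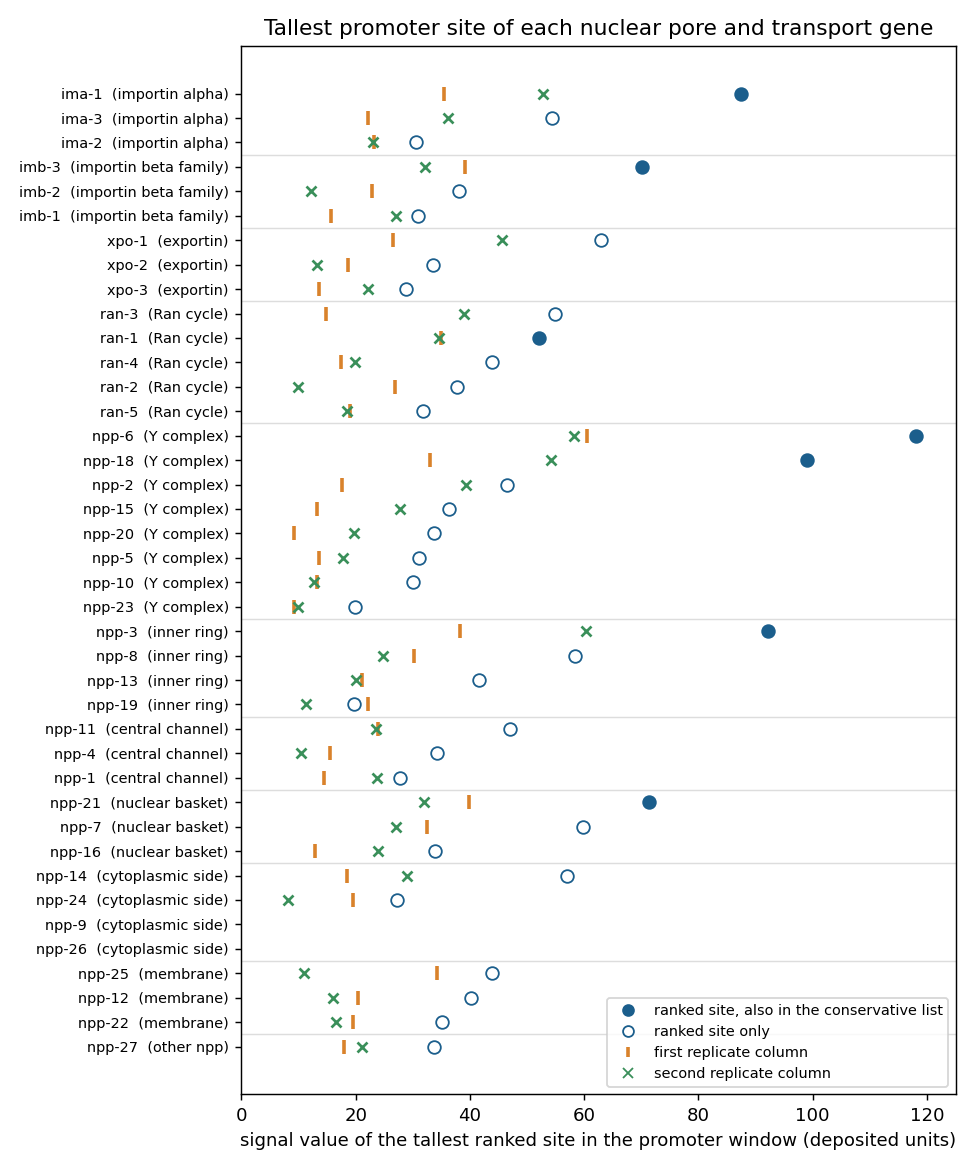
Signal value of the tallest ranked site in the promoter window of each gene (circles, filled where the site is in the conservative list) with the value in each replicate column (ticks and crosses), by role; npp-9 and npp-26 have no site. The filled circles run from 52.1 at ran-1 to 118 at npp-6, and both replicate marks of every filled circle lie above 30.

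The 7 conservative peaks were of ordinary height for that list. Their median signal value was 87.4, against 89.19 over the 575 bound coding genes, and 4 of the 7 were above the median of all conservative peaks, 82.89. Their ranks among the 1021 peaks ran from 190 at npp-6 to 947 at ran-1. All 7 peaks were 296 bp wide, as were 976 of the 1021, and where a peak has that width the summit is its midpoint.

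The count depended on the list. The pooled thresholded list placed a summit in the window of 4 members (10%), against 2.6% of coding genes, and these were npp-6, npp-18, npp-3 and ima-1. The list of replicate 1 gave 1 member (2.5%, background 1.41%), npp-6. The list of replicate 2 gave 3 members (7.5%, background 1.19%), which were npp-6, npp-18 and ima-1. Both replicate lists together gave npp-6 alone, against 0.741% of coding genes. At an IDR of 0.05 or less in the ranked list, npp-7 and xpo-1 joined the 7, which made 9 members (22.5%, background 5.44%).

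**Figure D2:**
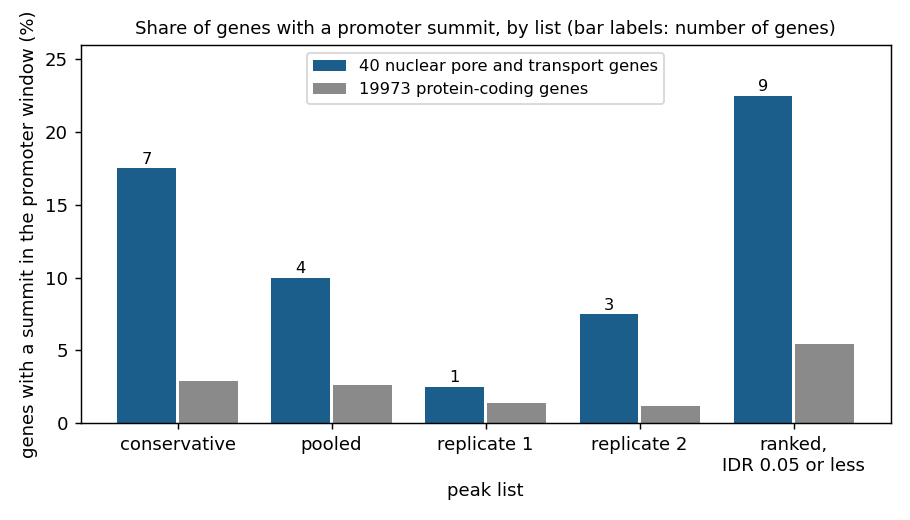
Percent of the 40 nuclear pore and transport genes and of all 19973 protein-coding genes with a summit in the promoter window, by peak list, with the number of member genes over the bars. The member share runs from 2.5% against 1.41% in replicate 1, which is 1 gene, to 22.5% against 5.44% among ranked sites with an IDR of 0.05 or less. The lists come from the same 2 replicates and share genes, so they are not independent of each other.

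Most of the unbound members had a ranked site short of the conservative list. In the list of all ranked sites from the comparison, 38 members (95%) had a summit in the window, against 66% of coding genes. In the ranked list of replicate 1 there were 37 (92.5%, background 46.8%), and in that of replicate 2 there were 34 (85%, background 49.6%). Over genes with a site, the median of the tallest signal value was 39.09 in members and 29.71 in coding genes. In replicate 1 alone the medians were 21.09 and 17.77, and in replicate 2 alone 26.13 and 20.57. With genes that lack a site counted as 0, the medians in the comparison were 37.86 and 21.43.

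Most members stood above the coding median in height. Of the 40, 36 (90%) exceeded the median of all coding genes, 25 (62.5%) its 75th percentile and 14 (35%) its 90th percentile. Among the 33 unbound members alone, 29 exceeded the median and 7 the 90th percentile. These limits are those of all coding genes, bound ones included, and the matching shares of unbound coding genes were not computed. Nucleoporins and carriers differed little, with a median of 38.28 over the 24 npp genes with a site and 40.96 over the 14 genes of carriers and the Ran cycle. With 2 replicate values per gene, neighbours in this order are not separated where those values overlap, as at npp-14 and ran-3. The second column over the first had a median of 0.9929 in members, from 0.3187 at npp-25 to 2.617 at ran-3, and 31 of 38 (81.58%) lay within 2-fold, against 76.33% of coding genes. Both extremes, and others of the 38, rest on a column value that could not be checked against the list of that replicate.

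**Figure D3:**
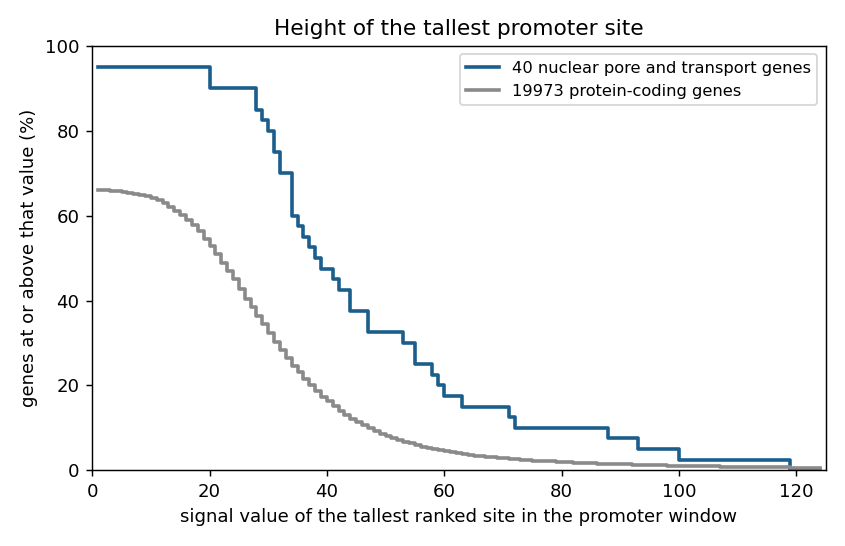
Percent of genes whose tallest ranked promoter site is at or above each signal value, for the 40 nuclear pore and transport genes and for all 19973 protein-coding genes, with genes that lack a site kept in the total. The member curve starts at 95% against 66% and stays above the other through most of the range of member heights.

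All 38 tallest ranked summits of members lay upstream of the start, against 80.96% in coding genes, and 26 (68.42%) lay within 500 bp upstream, against 44.56%. Of the 38, 25 (65.79%) were intergenic, against 47.29%, and 8 (21.05%) were in a coding exon, as at npp-14 in that of its neighbour. Of coding genes 24.17% had theirs in a coding exon, their own included. The 7 conservative summits lay a median of 353 bp upstream, against 264 bp over bound coding genes. A summit in a member's window need not belong to that member. In 5 of the 7 it also fell in the window of another coding gene, which was true of 262 (45.57%) of the bound coding genes. Counting each summit only for the nearest coding start left 3 members, imb-3, npp-3 and npp-18, against 2.17% of coding genes under that rule, while npp-6, ima-1, npp-21 and ran-1 lost theirs to spd-5, dvc-1, pgam-5 and dkc-1.

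**Figure D4:**
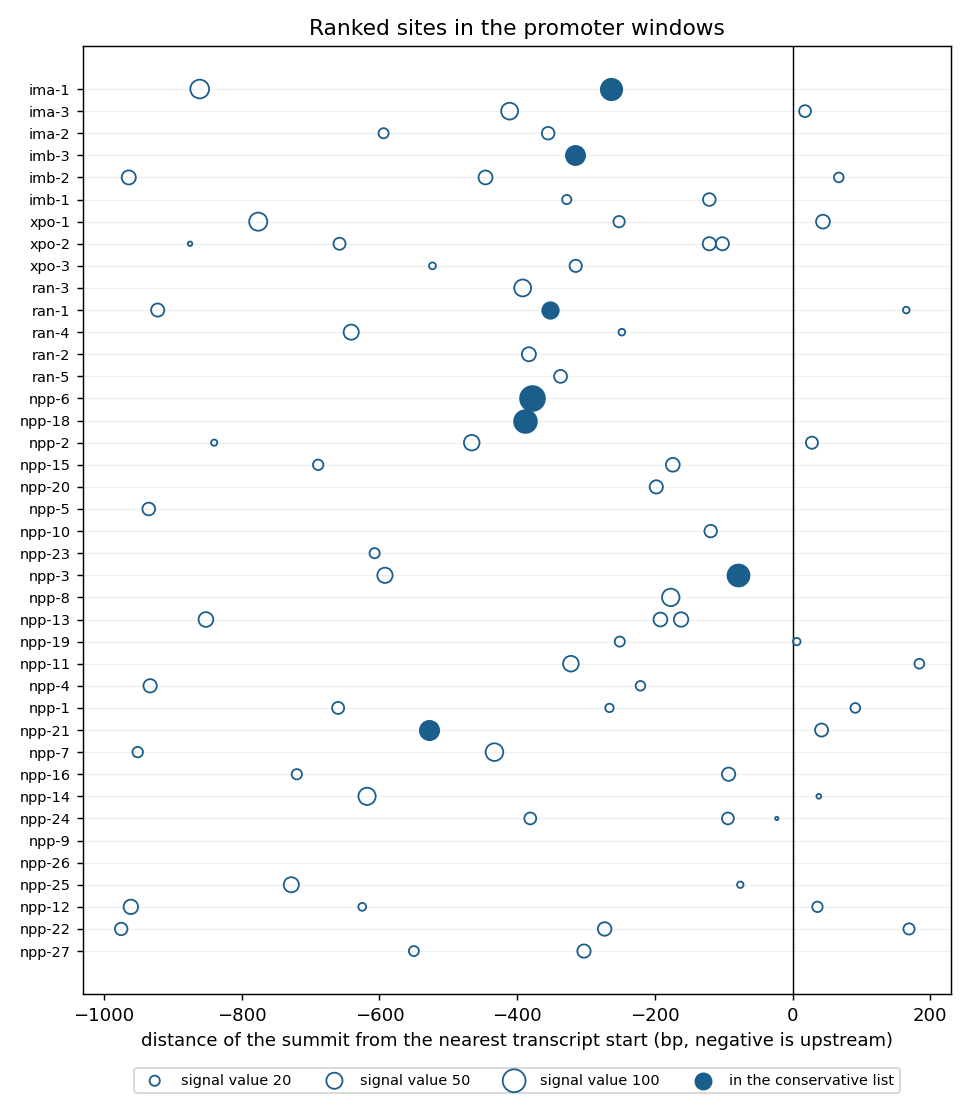
Distance in bp from each ranked summit to the nearest transcript start of the gene (negative is upstream), 1 line per gene in the order of roles, with symbol size for signal value and filled symbols for conservative peaks. The 7 filled symbols lie between 79 bp upstream at npp-3 and 528 bp upstream at npp-21.

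The promoter windows of members were also rich in CG as sequence, whether or not they held a peak. Over the 1201 bases of the window at the most upstream start, members had a median of 50.5 CG (35 to 70), coding genes 36 and bound coding genes 51. GC content differed little, with medians of 35.85% and 34.97%. Of the 40 windows, 37 exceeded the coding median in CG. CGCGCC was present on either strand in 19 windows (47.5%), against 14% of coding windows and 33.2% of bound coding windows. Of these 19 genes, 4 were bound (npp-3, npp-6, npp-18 and ran-1) and 15 were not. The share bound among all coding genes with the string was not computed, so these counts do not show how the string goes with binding. TTCGCGC was present in 9 (22.5%), against 6.53%, and CTGCGTC in 6 (15%), against 11.5%. The windows of 7 genes held both of the first 2 strings, against 2.98% of coding genes, and the strings can overlap in the same bases. npp-9, which had no site in any list, had 60 CG and both strings. At the ranked summits themselves, the 101 bases of the 31 unbound members had a median of 3 CG, equal to that of all coding genes. The part of CG content in the counts of bound genes was not tested.

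**Figure D5:**
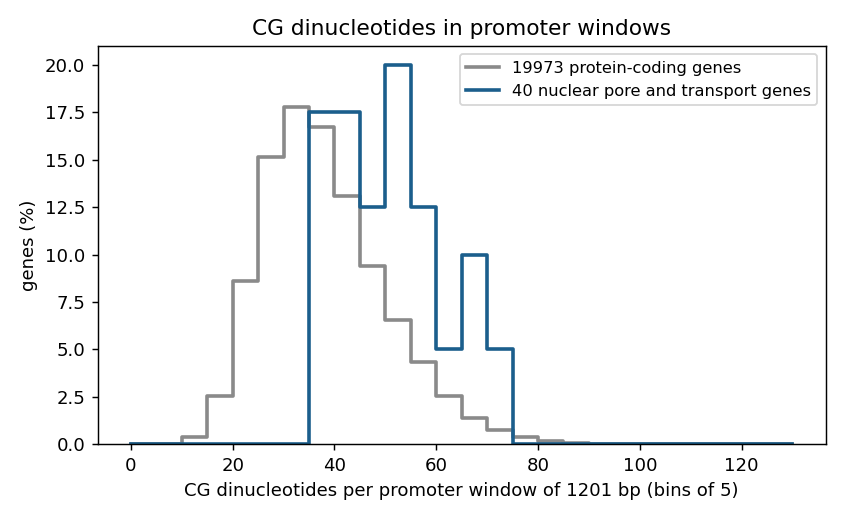
Percent of genes by number of CG dinucleotides in the promoter window of 1201 bases, in bins of 5, for the 40 nuclear pore and transport genes and all 19973 protein-coding genes. The members' windows run from 35 to 70 CG, and the coding median is 36.

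The members were spread over the autosomes, with 13 on I, 8 each on II, III and IV, 3 on V and none on X. Bound members were 2 on I, 2 on II, 2 on III, 0 on IV and 1 on V. Of all coding genes, 4.93% were bound on I, 2.52% on II, 4.81% on III, 3.54% on IV and 1.76% on V, and with so few members no chromosome can be set apart. There were 3 pairs of members within 10000 bp of each other, and in none did both hold a conservative promoter peak. imb-3 and xpo-2 lie 3559 bp apart on the same strand, and of these imb-3 was bound. npp-15 and ran-2 lie 479 bp apart, and neither was bound, nor were npp-27 and xpo-3, 6441 bp apart.

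Genes of the nuclear envelope, of RNA export and of the SUMO pathway that are outside the name rule were read in the same way. Their lists were chosen with earlier results of these data known. Of 14 genes of the nuclear envelope and lamina, 1 had a conservative promoter summit, emr-1, the emerin gene, with signal value 77 at 350 bp upstream. Of 14 genes of mRNA and snRNA export, 1 did, aly-2, an adaptor of mRNA export, with 71.75 at 246 bp upstream. Of 8 genes of the SUMO pathway, 1 did, smo-1, the SUMO gene, with 62.18 at 518 bp upstream. The replicate columns held 32.89 and 39.43 at emr-1, 28.73 and 45.31 at aly-2, and 31.07 and 38.58 at smo-1. Of all 36 genes, 3 were bound and 33 had a ranked site. Both are larger shares than those over all coding genes, which were 2.88% and 66%. Of the 36, 11 were among the highest 10 percent of coding genes in height, beside 14 of the 40 pore and transport genes, and the median of the tallest was 39.21, close to the 39.09 of the pore and transport genes.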

How the data were processed

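Chromatin from 2 biological replicates of tagged whole worms was read from 8 deposited peak lists on ce11, which is the WBcel235 assembly, per the labels. The lists are thresholded or ranked (4 each) and cover each replicate, the pooled reads, and the replicates compared. The deposited signal value of each peak is the authors' own height on a scale that is not stated, and the deposited −log10 of the global IDR comes from the ranked lists. Which aligner, caller and control the authors used is not given in the sources used here. Of 120 columns, 74 were not used. The files hold no read counts, so depth is unknown and no counting error could be given.

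Summits were read as deposited, with positions counted from 1, and placed in windows of 1000 bp upstream to 200 bp downstream of any transcript start of Ensembl release 115. Genes with a conservative summit in the window are called bound, and the tallest site gives a gene's height. Windows and overlaps were computed in Python 3.11.15 and figures with matplotlib 3.10.9, and window placement was tested on simulated data. Uniqueness is the share of stretches of 31 bases within a peak found once in the genome on both strands. With 1 group and no control, no comparison between conditions and no significance test was made, and shares are set beside those of all protein-coding genes. The members, gene lists and motifs were chosen with earlier results of these data known. Every member is named. Height, replicate columns and IDR are given for those with a thresholded promoter summit and for the 5 tallest and 3 lowest of the others. Members with no site in the comparison are given with what the other lists hold. Alternatives changed the window, the list, the height limit, the starts used and the assignment of shared summits.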

Additional observations from a re-analysis of the deposited data

How the results depend on the processing

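The count of 7 bound members (2.88% of coding genes) was 6 with a window of 500 bp upstream and 100 bp downstream (2.12%), 9 with 2000 and 500 bp (4.12%, npp-8 and ran-3 added), 7 with any base of the peak in the window (3.07%) and 7 with the most upstream start alone (2.66%). It was 4 in the pooled list (2.6%), 4 when peaks below the median of the list were left out (1.71%), 3 when each summit counted for the nearest coding start (2.17%), and 1 to 3 in the lists of single replicates (1.41% and 1.19%). All members that these smaller counts kept were among the 7. The count in both replicate lists went from 1 to 2 with the window of 2000 and 500 bp, where the share of coding genes went from 0.741% to 1.12%, and was 1 with the other windows tried. The median height of bound members was 95.59 in the pooled list, which lacks the 3 lowest of the 7 in its promoter windows; the cause was not tested. The median ranked height of 39.09 was 34.53 in the smaller and 43.79 in the larger window, 71.43 at an IDR of 0.05 or less, and 21.09 to 26.13 in single replicates, whose heights are on their own scale. The median distance stayed between 321 and 378 bp upstream. No paired analysis was possible because there is 1 group. Depth is unknown, so a member with no site cannot be told from one below detection.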

Other observations

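Several members have a conservative peak near them that the promoter window leaves out. imb-3 has a taller one than its promoter peak, of signal value 194.5 at 316061 to 316356 on chromosome I, 1220 bp upstream of its start, in the stretch between it and xpo-2 and in no gene's promoter window. ran-1 has one of 170.7 at 10746531 to 10746826 on chromosome III, 1049 bp past its start in a UTR exon of ran-1, more than 3 times the height of its promoter peak. ima-2, unbound in its window, has one of 172.2 just past its end, 408 bp upstream of hrpk-1. npp-8 has one of 66.31 in an intron, 427 bp past its most upstream start, and npp-16 one of 89.58 in a UTR exon, 1833 bp past its start. ran-3 has one of 83.35 at 1745 bp upstream, in a coding exon of C26D10.3. Over the 33 unbound members, 6 had a conservative summit within 5000 bp, and the median distance to the nearest was 20089 bp. The same count over all coding genes was not made, so it is not known whether the members differ from them in this. What these sites do for the genes beside them was not tested.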
